A study of Mus musculus with 11 samples.

Results

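Gdf15 and Fgf21 are the genes of growth differentiation factor 15 and fibroblast growth factor 21, and they were selected by symbol as 2 of the 15113 genes in the deposited counts table. They were measured in C2C12 cells, a line of mouse myoblasts that form multinucleated myotubes by fusion in low serum. All libraries carry the same label, early myotubes, with passage numbers from 2 to 5. The shRandom group (n = 6) carried a short hairpin RNA of random sequence, while the shDRP1 group (n = 5) carried a hairpin directed at Drp1, the GTPase of the dynamin family by which mitochondria divide. By its title the series asks what Drp1 does for substrate oxidation and calcium in muscle, and the comparison here asks how the messenger RNA of these hormones differed between the groups. The labels do not say how many hairpin sequences or clones were used, or whether each library is its own culture. The p-values therefore cover the spread between these libraries only, which may be technical.

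Both proteins are secreted hormones that muscle and liver release under mitochondrial or nutrient stress, and they are therefore often called mitokines. GDF15 is a distant member of the TGF-beta family whose precursor is cut by furin-like proteases and whose receptor, GFRAL with RET, is found in the hindbrain. FGF21 is an endocrine FGF that needs the co-receptor beta-klotho together with an FGF receptor. Both genes are known targets of the integrated stress response, in which phosphorylation of the initiation factor eIF2 raises translation of the transcription factor ATF4, and GDF15 is also a known p53 target.

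The start regions of both genes are shown because they hold different short matches to the element bound by ATF4 with C/EBP partners. Each line gives 250 bases that end just before the first transcribed base, 5′ to 3′ on the gene's own strand, from RefSeq on GRCm38.p6. Both genes lie on the minus strand, with the windows at chr7:45615491-45615740 for Fgf21 and chr8:70632457-70632706 for Gdf15. Capitals mark matches to letters searched on both strands. The C/EBP-ATF composite element was searched as TGATGCAA and its core as TGATGC. The cAMP response element was searched as TGACGTCA, the E-box as CACGTG, and the box that positions transcription starts, named after its letters, as TATAAA.
Fgf21: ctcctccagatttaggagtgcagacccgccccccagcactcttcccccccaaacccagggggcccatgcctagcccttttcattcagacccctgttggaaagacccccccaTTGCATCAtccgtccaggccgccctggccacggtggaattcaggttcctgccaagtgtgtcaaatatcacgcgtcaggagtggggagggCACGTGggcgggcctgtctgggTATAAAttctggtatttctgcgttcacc
Gdf15: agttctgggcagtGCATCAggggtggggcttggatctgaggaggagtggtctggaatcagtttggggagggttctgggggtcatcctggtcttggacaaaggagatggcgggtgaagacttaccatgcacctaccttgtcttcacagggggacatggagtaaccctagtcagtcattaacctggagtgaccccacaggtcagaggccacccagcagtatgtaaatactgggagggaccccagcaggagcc
In Fgf21 the composite element lies on the opposite strand, 139 to 132 bases before the start. In Gdf15 the core alone occurs, on the opposite strand, 237 to 232 bases before the start, and the longer element is not in this window. The E-box and the TATA box were found in Fgf21 only of these 2 windows, at 50 to 45 and 28 to 23 bases before the start. Among 27025 mouse genes with a promoter in the RefSeq table, using the most upstream start of each, 0.825% held the composite element, 9.34% the core (which every composite element contains), 1.60% the cAMP response element, 13.0% the TATA box and 6.04% the E-box. For Gdf15, which has 2 entries in that table, the start that coincides with its GENCODE start was used.

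Gdf15 was lower in every shDRP1 library than in any shRandom library. Gdf15 (ENSMUSG00000038508) is a protein-coding gene of the minus strand of chromosome 8 (GRCm38, start 70629393, end 70632456), and no other annotated gene overlaps it. Levels are given in CPM, the usual unit of counts relative to library size, here with library sizes scaled by the trimmed mean of M values (TMM). The level in shRandom replicates 1 to 6 was 119.8, 141, 117, 146, 102 and 143 CPM. In shDRP1 replicates 1 to 5 it was 6.67, 5.88, 5.82, 7.86 and 8.90 CPM. The lowest shRandom library was thus 11.5 times the highest shDRP1 library. Within a group, the highest library was 1.43 times the lowest in shRandom and 1.53 times the lowest in shDRP1. The mean fell from 128 ± 17.6 (SD, n = 6) to 7.03 ± 1.33 CPM (SD, n = 5), that is, to 5.48% of the shRandom mean. On the log2 scale the change was -4.18 with SE 0.14, and the quasi-likelihood test of edgeR gave an adjusted p = 2.5e-12 (Benjamini-Hochberg, 13025 genes). Permuting the CPM values over all 462 splits (exact, two-sided) gave p = 0.00433, the smallest it can give. The values rest on 14091 counts in the shRandom and 624 counts in the shDRP1 libraries.

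Fgf21 fell as well, to nearly no counts. Fgf21 (ENSMUSG00000030827) is a protein-coding gene of the minus strand of chromosome 7 (GRCm38, start 45613886, end 45615490), with no other annotated gene overlapping it. In shRandom replicates 1 to 6 its level was 16.3, 8.07, 7.25, 4.86, 8.57 and 6.76 CPM, from 256, 179, 129, 88, 133 and 131 counts. In shDRP1 replicates 1 to 5 it was 0.232, 0.619, 0.258, 0.0471 and 0.116 CPM, from 4, 8, 5, 1 and 2 counts. The groups did not overlap, replicate 1 stood above the other shRandom libraries, and every shDRP1 library rested on 8 counts or fewer. The mean fell from 8.63 ± 3.97 (SD, n = 6) to 0.254 ± 0.221 CPM (SD, n = 5), or 2.95% of the shRandom mean. On the log2 scale the change was -5.18 (SE 0.45, adjusted p = 2.3e-07 by the same edgeR test), and the two-sided exact permutation test gave p = 0.00433. The ratio of summed counts, scaled for library size, was 37.1 with a 95% exact binomial interval of 23.9 to 61.0. That interval covers counting error only, since the protocols name no molecular identifiers for the PCR reads.

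**Figure D1:**
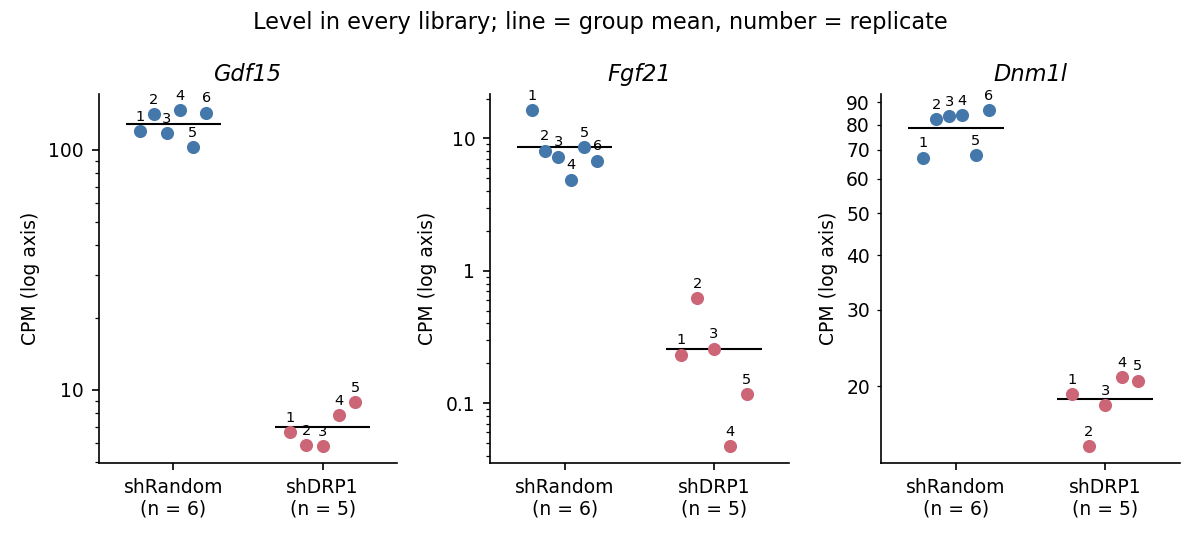
Level of Gdf15, Fgf21 and Dnm1l in every library, in CPM on log axes that differ between panels; points are libraries labelled with their replicate number and lines are group means. All shDRP1 libraries lie below all shRandom libraries in each panel, and the Fgf21 points spread more than the Gdf15 points in both groups.

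These decreases stood in a background of many changes. Of the genes tested, 33.3% were lower and 33.9% higher at an adjusted p below 0.05 (edgeR), and in 25.4% every shDRP1 library was below every shRandom library (48.9% did not overlap in either direction, and 67.1% were called in either). A log2 fold change of -4 or lower that passed the test was seen in 3.92% of genes, a class that holds both members. Dnm1l, which encodes Drp1, fell from 78.6 ± 8.63 (SD, n = 6) to 18.7 ± 2.58 CPM (SD, n = 5), a log2 fold change of -2.07, where 7.82% of genes were called at -2 or lower. Total counts per library ran from 12277622 to 23082617 and did not differ between the groups beyond their spread (two-sided exact permutation test, p = 0.364).

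Muscle differentiation markers moved in the same direction. The summed level of 9 myotube markers, among them Myog, Acta1 and Tnnc1, ran from 11962 to 13427 CPM in shRandom libraries and from 152 to 212 CPM in shDRP1 libraries, so the shDRP1 libraries go against the label of early myotubes. All 9 were lower by edgeR, with a median log2 fold change of -6.93, and their part in the decreases of Gdf15 and Fgf21 was not tested. In bulk RNA, fewer cells of a type and less RNA per cell cannot be told apart. Of 6 fibroblast markers 5 had counts, and their sum ran from 5034 to 5372 CPM in shRandom and from 7796 to 11119 CPM in shDRP1 libraries. Of these 5, Col1a1 and Col3a1, which make up most of the sum, were higher (log2 fold changes of 1.47 and 0.49), Dpt and Ly6a were lower (-2.34 and -1.35) and Pdgfra was not called, with a median of -0.10. Of 6 macrophage markers 4 had counts, with sums of 3.66 to 4.83 CPM in shRandom and 12.3 to 20.7 CPM in shDRP1 libraries. Most of the macrophage sum in shDRP1 libraries was Lyz2, at 10.9 ± 2.88 CPM (SD, n = 5). Lyz2 and Cd14 were higher (log2 fold changes of 4.21 and 1.23), Csf1r was lower (-1.03) and Cd68 was not called. Of the adipocyte markers, Fabp4 alone had counts, at 0.931 CPM or less in every library, and the endothelial and hepatocyte markers Pecam1, Cdh5, Kdr, Tie1, Emcn, Alb, Apoa1, Ttr, Serpina1a, Apoa2 and Fgb were not analysed here.

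A difference in the size of the decrease between the hormones was not detectable. The ratio of Gdf15 to Fgf21 within a library was between 7.36 and 30.1 in shRandom and between 9.50 and 167 in shDRP1 libraries, and the groups overlapped. Its log2 value averaged 3.98 ± 0.70 (SD, n = 6) in shRandom and 5.25 ± 1.61 (SD, n = 5) in shDRP1 libraries (two-sided exact permutation test, p = 0.126). Low counts of Fgf21 limit this comparison, and the p does not show that the genes fell alike.

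Within the shRandom group, no positive relation between Gdf15 and Fgf21 was seen. Among shRandom libraries Fgf21 varied with a coefficient of variation of 45.9%, above that of 98.8% of 1772 tested genes at a like level (mean CPM within 1.5 times). For Gdf15 it was 13.7%, above that of 86.4% of 1342 genes at its level. The library highest in Gdf15, replicate 4, was the lowest in Fgf21 of its group. In the shDRP1 group replicate 4, second highest in Gdf15, was the lowest in Fgf21, with 1 count beside 2 in replicate 5. Such counts are too few to rank these libraries. Over the 6 shRandom libraries Pearson's r of CPM between the members was -0.43 (exact permutation p = 0.436) and Spearman's rho -0.71 (exact permutation p = 0.136). Without the 2 libraries farthest from the median in Gdf15, r was -0.50.

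Among the 6 shRandom libraries Atf4 ran with Gdf15, short of the adjusted threshold, and against Fgf21. Atf4 encodes the central transcription factor of the integrated stress response. Over the 6 shRandom libraries its CPM correlated with Gdf15 at r = 0.86 (exact permutation p = 0.0444, adjusted p = 0.0667 over 3 relations) and rho = 0.83 (exact permutation p = 0.0583, adjusted p = 0.0875). With Fgf21 it correlated at r = -0.83 (exact permutation p = 0.0111, adjusted p = 0.0333) and rho = -0.94 (exact permutation p = 0.0167, adjusted p = 0.050). Without the 2 libraries farthest from the median in Atf4, r was 0.98 for Gdf15 and -0.71 for Fgf21. The relation to Gdf15 was thus not past an adjusted 0.05, and the one to Fgf21 was by r. Such values were not particular to Atf4. On log2 CPM over these libraries, 794 of 13024 tested genes had a higher r with Gdf15 than Atf4 had. With Fgf21, 12022 had a higher r than Atf4, and the rest were as negative or more so.

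The genes most like Gdf15 after group means were removed were Gars, the glycyl-tRNA synthetase (r = 0.99 over 11 libraries, on log2 CPM), Ddit3, which encodes the stress transcription factor CHOP (0.97), Mrpl28 (0.97), the chaperone gene Hspa5 (0.95) and Mrm2 (0.95). These values are given as a measure of likeness with no test, since the genes were picked for it among 13024. Ddit3 showed the likeness library by library. In the shDRP1 libraries, taken from lowest to highest Gdf15 (replicates 3, 2, 1, 4 and 5), Ddit3 stood at 103, 108, 124, 134 and 155 CPM, the same order. In the shRandom libraries ordered in this way (replicates 5, 3, 1, 2, 6 and 4), Ddit3 stood at 230.3, 265, 259, 315, 348 and 335 CPM, with 2 neighbouring pairs exchanged. Of 45 tested ATF4 targets, 34 deviated with Gdf15 and 11 against it, with a median r of 0.58 beside 0.04 over all genes (the values share libraries and scaling). For Fgf21 these numbers were 19 and 26, with a median r of -0.14 beside -0.06 over all genes. The genes most like Fgf21 were Phf2 (r = 0.98), the tubulin gene Tubb6 (0.98), Hopx (0.97), Josd1 (0.97) and Ptk2 (0.97). All these values for Fgf21 include shDRP1 libraries with 8 counts of it or fewer, so counting error enters them.

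**Figure D2:**
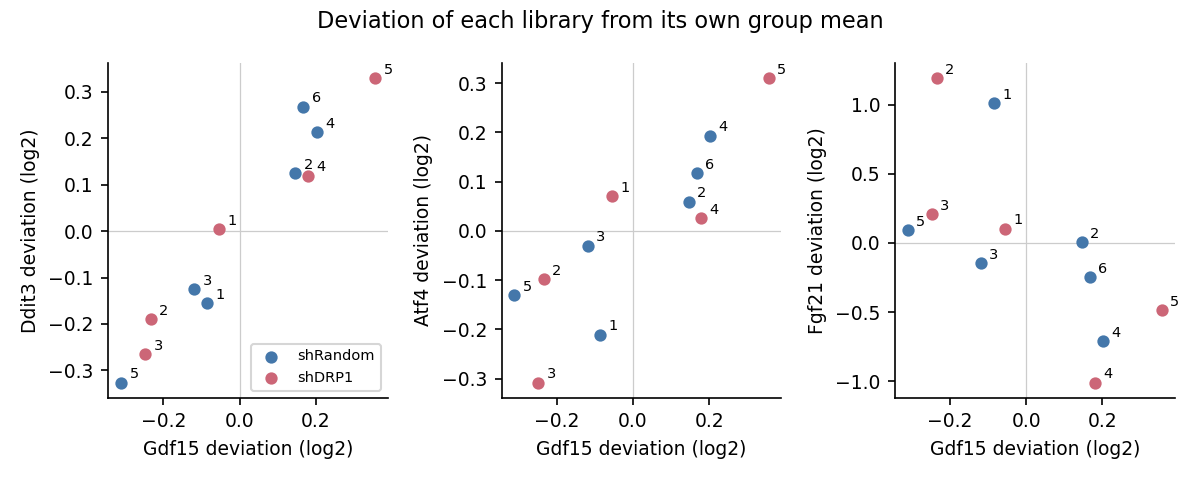
Deviation of each library from its own group mean in log2 CPM, for Gdf15 (horizontal) against Ddit3, Atf4 and Fgf21 (vertical); points are the 6 shRandom and 5 shDRP1 libraries with their replicate numbers. Ddit3 runs along the diagonal in both groups (r = 0.97 over 11 libraries) and Fgf21 runs the other way (r = -0.67). The Fgf21 points of the shDRP1 libraries rest on 8 counts or fewer each, so counting error enters their spread.

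Over all 11 libraries, with the group difference left in, 13.95% of the tested genes correlated with Gdf15 above 0.95 and 7.89% with Fgf21, so this measure sets few genes apart. The 5 most alike were Npnt, Pxn, Apoe, Lgals3 and Tecr for Gdf15 (r from 0.998 to 0.999) and Tubb6, the amino acid carrier gene Slc7a5, Gatm, Ier2 and Hs2st1 for Fgf21 (r from 0.994 to 0.998). Between Gdf15 and Fgf21 r was 0.94, and 1952 genes were more like Gdf15.

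Among transcription factors with a known link to either gene, Atf4 and its partners were lower. Atf4 fell from 2500.2 ± 263 (SD, n = 6) to 896 ± 141 CPM (SD, n = 5), a log2 fold change of -1.48 (adjusted p = 1.3e-08, edgeR). Ddit3 fell from a mean of 292 to 125 CPM, Atf3 from 16.5 to 2.92 CPM and Cebpb from 48.1 to 14.4 CPM. Of the 22 such factors tested, which include myogenic and nuclear receptor genes, 14 were lower and 5 higher (median log2 fold change -0.58, all genes 0.03), beside 33.3% and 33.9% of all genes. The log2 fold change was lowest, among these 22, for the myogenic factor gene Myod1 (means of 120.5 and 2.28 CPM) and the nuclear receptor gene Rora (34.4 and 1.23 CPM). Those higher were Ppargc1a, Ppara, Pparg, Ppard and Trp53. The coactivator gene Ppargc1a rose from 0.175 ± 0.0498 (SD, n = 6) to 1.95 ± 0.449 CPM (SD, n = 5). Ppara, the lipid-sensing receptor gene that drives Fgf21 in liver, rose from 0.354 to 0.754 CPM (log2 fold change 1.10, adjusted p = 0.014, edgeR), and its groups overlapped. Trp53, the gene of p53, was 0.39 higher on the log2 scale (adjusted p = 0.025, edgeR) with overlapping groups. Its call was lost without shDRP1 replicate 4, shDRP1 replicate 5 or shRandom replicate 6, at adjusted p = 0.052, 0.062 and 0.056 (edgeR).

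Of 15 tested genes that sense stress or act on eIF2, 7 were lower and 5 higher, beside 33.3% and 33.9% of all genes, with a median log2 fold change of 0.00. Of the 4 eIF2 kinase genes, those for PKR (Eif2ak2), GCN2 (Eif2ak4) and PERK (Eif2ak3) rose by 2.33, 0.99 and 0.63 on the log2 scale. That for HRI (Eif2ak1), chosen after its value was seen, had a log2 fold change of 0.15 (adjusted p = 0.046, edgeR) with overlapping groups, and it missed the threshold in 14 of 21 alternatives (adjusted p from 0.0013 to 0.12 over all 21). Eif2ak2 is itself a known interferon-induced gene and stood at 10.3 ± 1.32 CPM (SD, n = 6) and 52.1 ± 6.70 CPM (SD, n = 5). Of the 5 subunit genes of the exchange factor eIF2B, 4 fell, with log2 fold changes that include -1.06 for Eif2b2, -0.79 for Eif2b5 and -0.55 for Eif2b3. Ppp1r15a, which encodes the eIF2 phosphatase subunit GADD34 and is an ATF4 pathway target, fell by 1.40 on the log2 scale.

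Of 45 ATF4 targets tested, Gdf15 and Fgf21 aside, 40 were lower and 1 higher, beside 33.3% and 33.9% of all genes. The median log2 fold change of the 45 was -1.40, with a range from -7.20 to 0.34. Ppp1r15a, Atf3 and Cebpb, described above, are among them, so the lists overlap. Among all genes, 13.7% were called at -1 or lower. Of these 45 genes, Vldlr alone, a lipoprotein receptor gene, had a log2 fold change below that of Gdf15. It fell from 90.8 ± 9.62 (SD, n = 6) to 0.592 ± 0.326 CPM (SD, n = 5). The transaminase gene Gpt2 fell by 3.32, the serine and glycine enzyme genes Shmt2 and Psat1 fell by 2.12 and 1.60, and Chac1, Trib3 and Asns fell by 1.83, 1.81 and 1.45 on the log2 scale. Slc38a2, an amino acid transporter gene, rose by 0.28 (adjusted p = 0.00013, edgeR). Sesn2, Ddit4, Aldh18a1 and Aars did not pass the test and were picked out after their values were seen. Sesn2 (log2 fold change 0.34, adjusted p = 0.056, edgeR) did pass, as higher, in 8 of 21 alternatives. Among the 37 targets with an entry in the promoter table, 6 (16.2%) held the composite element seen in Fgf21, namely Chac1, Pycr1, Slc7a11, Nupr1, Aars and Atf3, beside 0.555% of 9724 tested genes with an entry. This is a description of letters, and the list was built from known ATF4 targets.

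Of 15 tested genes of mitochondrial protein stress, 10 were lower and 2 higher, beside 33.3% and 33.9% of all genes, with a median log2 fold change of -0.45. The mitochondrial chaperone gene Hspa9 fell from 766 to 350 CPM and the protease genes Lonp1 and Clpp fell by 1.01 and 0.46 on the log2 scale, while Hspe1 and Spg7 rose by 0.21 and 0.43. Among 15 tested p53 targets, 8 were higher and 5 lower, with a median of 0.32, beside 33.9% and 33.3% of all genes. Trp53inp1 and Ccng1 rose by 1.72 and 0.98, whereas Gadd45a, Pmaip1 and Cdkn1a fell by 3.50, 3.45 and 1.85 on the log2 scale.

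**Figure D3:**
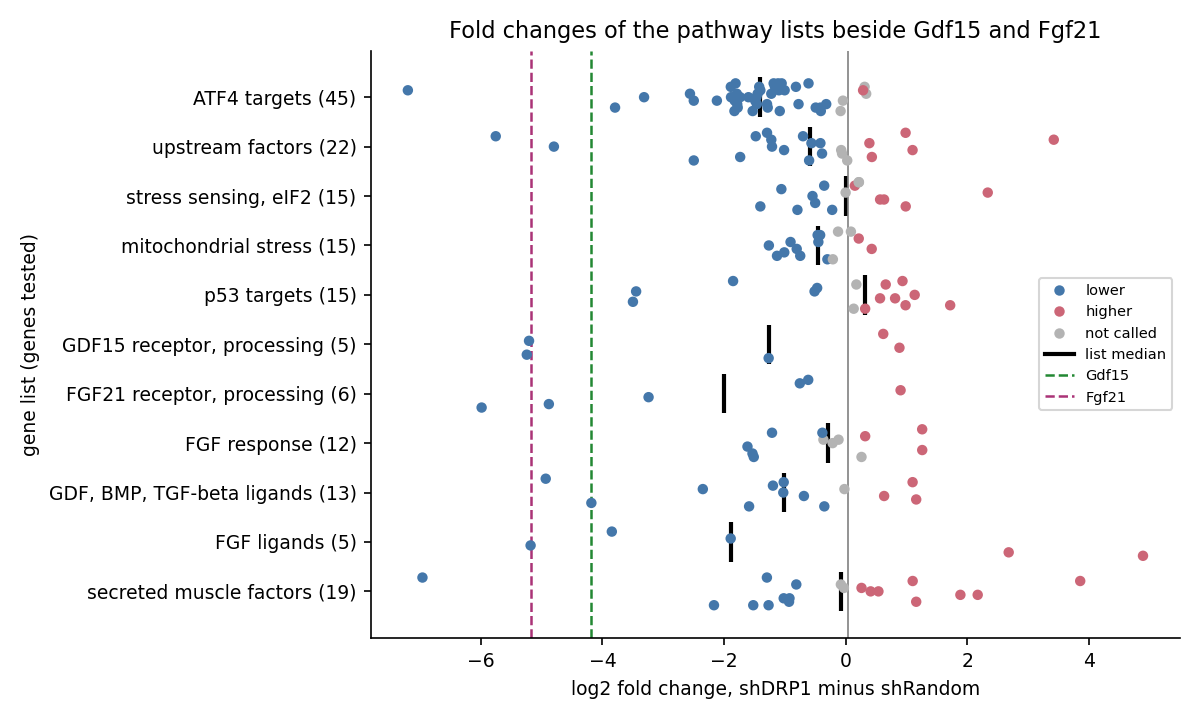
Log2 fold change (shDRP1 minus shRandom, horizontal) of every tested gene in 11 pathway lists, coloured by the edgeR call, with list medians as black bars, the median of all genes as a grey line and dashed lines at Gdf15 (-4.18) and Fgf21 (-5.18). Most ATF4 targets lie left of 0 with a median of -1.40, and few points reach the dashed lines.

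Genes that process or receive GDF15 were partly lower, 3 of 5 tested, with 2 higher, beside 33.3% and 33.9% of all genes. The furin gene Furin fell from 146 ± 12.5 (SD, n = 6) to 60.6 ± 6.63 CPM (SD, n = 5), a log2 fold change of -1.27, and Pcsk6, a related convertase gene, fell by 5.21. Pcsk7 rose by 0.88 (adjusted p = 0.0055, edgeR) with overlapping groups, and Mmp14, a membrane protease known to cut GFRAL, rose by 0.62. The receptor gene Gfral had 2 counts in each group, too few for a comparison. Its signalling partner Ret had 122 counts in shRandom libraries and 2 in shDRP1 libraries, both in replicate 1. The ratio, scaled for library size, was 49.4, with an exact 95% binomial interval from 13.4 to 413 for counting error. Pcsk5 was not analysed here.

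Genes listed for FGF21 reception and processing were mostly lower, 5 of 6 tested, with 1 higher, beside 33.3% and 33.9% of all genes. Fgfr1, the main partner of beta-klotho, fell from 73.8 ± 12.6 (SD, n = 6) to 43.7 ± 9.47 CPM (SD, n = 5), a log2 fold change of -0.76 (adjusted p = 0.00052, edgeR). Fgfr3, Fgfr4 and the decoy receptor gene Fgfrl1 fell by 3.24, 4.88 and 0.62, and Fgfr2 rose by 0.90 with overlapping groups. Fap, which encodes a protease known to inactivate human FGF21, fell by 5.99 on the log2 scale. It had 7 counts left in the shDRP1 libraries, which leaves the size of its decrease poorly determined. The klotho genes Klb and Kl were not analysed here. Of 12 tested genes that respond to or relay FGF signals, 5 were lower and 3 higher (median -0.29), that is, 8 of 12 were called beside 67.1% of all genes. Etv5, Fos, Spry1 and Egr1 fell by 1.62, 1.53, 1.51 and 1.21 on the log2 scale. The 3 higher were Frs2, the adaptor of FGF receptors, Spred3 and Spred1, which rose by 1.26, 1.26 and 0.32.

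Of 5 tested FGF ligand genes, Fgf21, Fgf11 and Fgf2 were lower, with log2 fold changes of -5.18, -3.85 and -1.89, and Fgf7 and Fgf10 were higher, at 2.68 and 4.89. Of 13 tested genes of the GDF, BMP, activin and TGF-beta ligands, 9 were lower and 3 higher, with a median of -1.02, beside the same shares of all genes (33.3% and 33.9%). In that family Gdf6 fell by 4.93 (5 counts left in shDRP1 libraries) and Gdf15 fell by 4.18, and Inhba, Bmp4 and Gdf11 rose by 1.16, 1.10 and 0.63 on the log2 scale. Of 19 tested genes of secreted muscle factors, 9 were lower and 8 higher (median -0.08), beside 33.3% and 33.9% of all genes. Fndc5, which encodes the irisin precursor, fell by 6.96, and the apelin gene Apln rose by 3.85 on the log2 scale.

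Position on the chromosome was examined because a stretch of chromosome 8 was lower in shDRP1 libraries. In the bins of 5 Mb from 5 to 30 Mb beyond the Gdf15 start, between 71.4% and 83.8% of tested protein-coding genes were lower, with medians from -1.52 to -0.98 and 7 to 65 genes in a bin. In the bins that touch Gdf15, 40.0% were lower on the side of smaller coordinates and 30.4% on the other, with medians of -0.01 in both. Within 1 Mb of Gdf15, 65 protein-coding genes were tested, of which 23 (35.4%) were lower and 19 higher, with a median of -0.01. The nearest on either side were Ssbp4 at 43.7 and 43.6 CPM (log2 fold change -0.01, adjusted p = 0.946, edgeR, with a sign that changed with the scaling) and Pgpep1, which rose from 38.8 to 51.9 CPM. Of the 65 genes, Gm3336 and Slc5a5 had lower log2 fold changes than Gdf15, with 2 and 7 counts left in shDRP1 libraries. They lie 86087 and 260301 bases from the Gdf15 start and were picked out after their values were seen. Beside these shares in the 5 Mb on either side of Gdf15, 33.3% of all genes were lower. Whether the lowered stretch had a part in the decrease of Gdf15 was not tested.

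**Figure D4:**
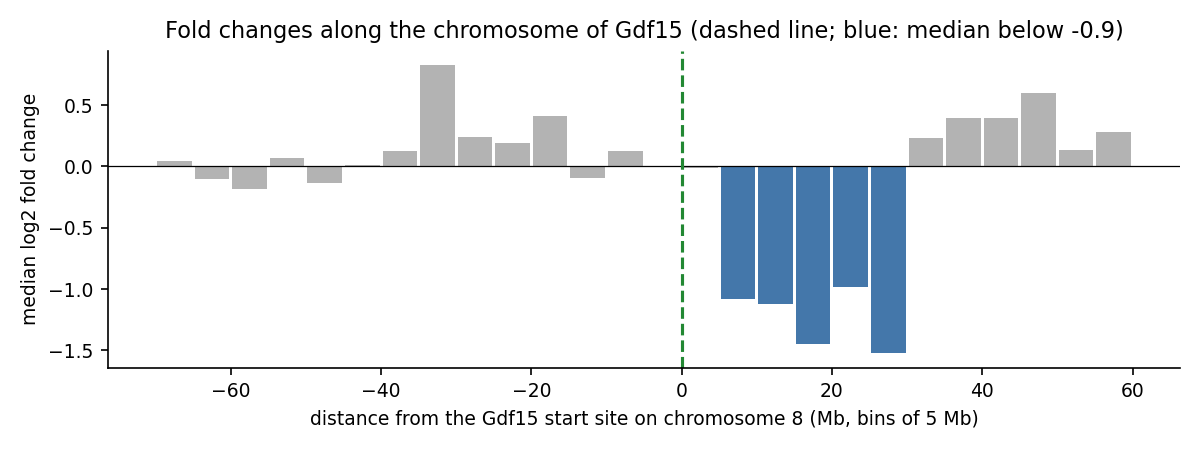
Median log2 fold change of tested protein-coding genes along chromosome 8 in bins of 5 Mb, by distance from the Gdf15 start (dashed line). Blue bars mark the bins from 5 to 30 Mb, with medians from -1.52 to -0.98, and the bins beside Gdf15 have medians of -0.01.

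Around Fgf21 some of the nearest genes were strongly lower. Fut1, a fucosyltransferase gene whose start lies 1799 bases from that of Fgf21 on the other strand, fell from 4.96 ± 0.467 (SD, n = 6) to 0.117 ± 0.0852 CPM (SD, n = 5), a log2 fold change of -5.36 (adjusted p = 4.7e-10, edgeR). Mamstr, which encodes a coactivator of MEF2 factors in muscle, starts 24487 bases away and had 330 counts in shRandom libraries and 1 count in shDRP1 libraries, in replicate 3. Its ratio was 267, with an exact 95% binomial interval from 47.6 to 10587 for counting error. Ntn5, 68532 bases away, fell by 6.72 with 7 counts left in shDRP1 libraries. On the other side the nearest tested gene, Bcat2, stood at 19.6 and 18.8 CPM (log2 fold change -0.06, adjusted p = 0.502, edgeR), and its sign changed with the scaling. Farther along that side, Ppp1r15a, with its start at -89222 bases from that of Fgf21, had a log2 fold change of -1.40. Hrc, at -280200 bases and picked out after its value was seen, fell from 125 to 1.54 CPM (log2 fold change -6.35). Within 1 Mb, 24 of 57 tested genes (42.1%) were lower and 13 higher, with a median of -0.06, and Myod1 lies in this window. In the 5 Mb beyond Fgf21 toward larger coordinates 57.6% of 33 tested genes were lower, and in the 5 Mb on the other side 25.4% of 67.

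**Figure D5:**
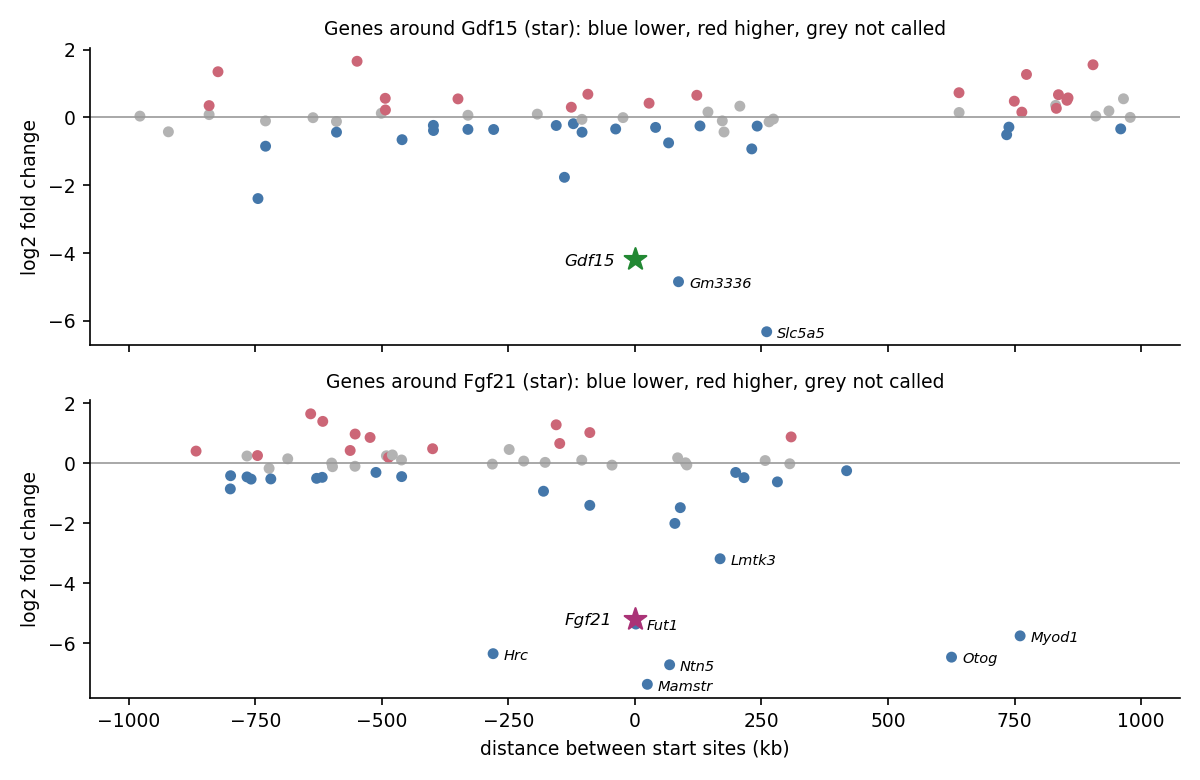
Log2 fold change (vertical) of tested protein-coding genes by the distance of their start from that of Gdf15 (upper panel) or Fgf21 (lower panel) in kb; stars are the members, colours give the edgeR call, and the lowest genes are named. Around Gdf15 only Gm3336 and Slc5a5 lie below the star, and next to Fgf21 the genes Fut1, Mamstr and Ntn5 lie at or below its level. Hrc and Myod1 lie below the Fgf21 star farther away.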

How the data were processed

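Messenger RNA of 6 shRandom and 5 shDRP1 libraries was measured by QuantSeq, which counts tags near the 3' end of polyadenylated transcripts, so levels are not divided by gene length. Groups and replicate numbers come from the sample titles. The deposited table holds raw counts per gene. Per the series text the authors aligned reads in the BlueBee software, and the genome builds GRCm38 and mm10, with DESeq2 version 1.22.2, appear in the submitters' processing notes. For aligner, counter, strand setting and annotation nothing was given in the sources used here, so antisense reads cannot be told apart. A second deposited table holds a signal: counts after division by a size factor of the library, judging by the values. Only the scaling was checked against it, and the ratio of Gdf15 group means was 18.3 in it.

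The test was that of edgeR version 4.0.16, run in R version 4.3.3 (filterByExpr, TMM, robust quasi-likelihood fit with group as the only term, Benjamini-Hochberg adjustment, threshold 0.05). CPM uses TMM-scaled library sizes, and log2 CPM a prior count of 2. Symbols matched 15080 genes, and positions came from GENCODE M21 (GRCm38). Total counts per library ran from 12277622 to 23082617. Replicates differed beyond sampling noise in all pairs (chi-square over degrees of freedom from 5.03 to 57.2 over 25 pairs within groups). Exact permutation tests used scipy version 1.17.1. The fit was tested on simulated data in which far fewer genes changed than were called here. Its error rate with this many changes was therefore not tested.

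The members, the lists and the tests were chosen with earlier results of these data known. Genes named are the members, Dnm1l, all measured receptor and processing genes, up to 4 genes with the smallest adjusted p per list and direction, key factors fixed with the lists (Atf4, Ddit3, Trp53, Ppara, Asns, Trib3, Chac1), the 3 nearest tested neighbours on each side, and the 5 most alike by each measure. Not all of them are described. Alternatives were median-ratio factors, library totals, upper-quartile scaling, omission of the low-count filter, a stricter one (10 CPM in 5 libraries), DESeq2 version 1.42.0, limma-voom (limma version 3.58.1), the replicate number as a block, thinned counts and leaving out each library. Leaving out shRandom replicate 1 and shDRP1 replicate 2 together was added after seeing the data.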

Additional observations from a re-analysis of the deposited data

Results flagged for a closer look

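For many of the genes named here, each group of libraries was examined for 1 library far from the others (Dixon's gap test at the 95% level). Chance alone gives this in about 1 in 20 groups, so several flags such as those below would arise by chance among so many genes. Fgf21 in shRandom replicate 1, at 16.3 CPM, stood above the other shRandom libraries, and without it the log2 fold change of Fgf21 was -4.91. Ppargc1a in shDRP1 replicate 4, at 1.18 CPM, stood below the other shDRP1 libraries. Gadd45a in shDRP1 replicate 2, at 32.6 CPM, stood above the others of its group. Ret in shDRP1 replicate 1, at 0.116 CPM, and Mamstr in shDRP1 replicate 3, at 0.0515 CPM, were the only libraries of their group with a count, of 2 and 1.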

How the results depend on the processing

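Gdf15 kept its direction and call in 21 of 21 alternatives and Fgf21 in 20 of 20, with largest adjusted p of 1.6e-08 and 7.0e-06. With single libraries left out, log2 fold changes ran from -4.28 to -4.12 for Gdf15, from -5.70 to -4.87 for Fgf21 and from -2.12 to -2.01 for Dnm1l. The stricter low-count filter removed Fgf21, and it left 3 called genes of GDF15 reception and processing (5 as reported), 2 of FGF21 reception and processing (6) and 5 of the FGF response (8), since fewer genes were tested. Library totals alone and upper-quartile scaling moved the median of all genes from 0.03 to 0.13 and 0.12. Bcat2 changed sign under them, to 0.034 and 0.020, and Ssbp4 to 0.094 and 0.078. Ssbp4 also turned to 0.027 under the stricter filter, 0.0019 with the replicate block and 0.00042 without shRandom replicate 1 and shDRP1 replicate 2, and ran from -0.058 to 0.040 with single libraries left out; the cause was not tested. Aars turned to 0.015 and Ddit4 to 0.054 under library totals, Ddit4 to 0.038 under the upper quartile, and Aldh18a1 ran from -0.056 to 0.43 with single libraries left out. Of 2651 values for 128 named genes, 2592 kept direction and call, 28 lost the call, 17 gained it and 14 changed sign.

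Whether replicate numbers pair the samples could not be settled. The deviations of same-numbered libraries correlated above 0.1 in 1 of 5 pairs (-0.18 to 0.36), and so few pairs cannot exclude pairing. With the replicate block, the log2 fold change was -4.15 for Gdf15, -5.20 for Fgf21 and -2.05 for Dnm1l, with 3934 genes higher and 4003 lower (4413 and 4332 as reported). Few counts of Fgf21 in the shDRP1 libraries limit the size of its decrease.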
